A study of Homo sapiens with 5 samples.

Results

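The loci described here hold 10 genes of retinoid signalling, read in chromosome contact maps of the human myeloid leukemia line HL60. They are the retinoic acid receptor genes RARA, RARB and RARG, the retinoid X receptor genes RXRA, RXRB and RXRG, the retinoid response genes CYP26A1, DHRS3 and TGM2, and PML. Each gene was represented by the 500 kb bin of genome build hg19 that holds its transcription start, read together with the 5 bins on either side. The 10 bins stood among 6083 bins of the autosomes and chromosome X, of which 5630 were covered deeply enough for compartment scores, and the windows with their flanks took 110 bins. HL60 was compared in 3 states: without treatment, after all-trans retinoic acid (ATRA), and after the phorbol ester TPA, each in the same line with no genetic change named. Contacts were measured by Hi-C, in which chromatin is crosslinked, cut and religated so that sequenced junctions report which pieces of the genome lay together. The ATRA map came from 1 library, and the untreated and TPA maps each from 2 libraries merged before deposit, so every condition is 1 measurement, no test between conditions was possible and no p-value is given. The sources used here give no dose, no exposure time and no statement of whether libraries came from separate cultures. All intervals are 95% and cover counting error only, not duplicate reads or differences between cultures, and library and treatment cannot be told apart. Both treatments were compared with the same untreated map, so their differences are given side by side and are not independent.

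All-trans retinoic acid is the ligand of the retinoic acid receptors, which sit on DNA as dimers with a retinoid X receptor and switch from binding corepressors to binding coactivators when the ligand arrives. RARB and the enzyme genes CYP26A1 and DHRS3 are textbook targets of these dimers, and the enzymes in turn lower retinoid levels. In HL60, ATRA drives maturation toward granulocytes and TPA toward macrophage-like cells. Chromosomes fold into A compartments, rich in active genes, and B compartments, largely silent, and bins of one kind contact each other more than their distance alone would give.

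The receptor dimers bind direct repeats of a 6-base core motif. RefSeq promoter windows of 300 bases (build GRCh38.p14) were found for 8 of the 10 genes, in 18 windows. TGM2 and PML had no entry. The windows were searched on both strands for a core motif, which was AGGTCA or its variant GGGTCA, or the related motif AGTTCA or its variant GGTTCA, followed by another of these after 1, 2 or 5 bases. A direct repeat was found in 2 of the 18 windows, 1 of RARB and 1 of CYP26A1, both with a spacing of 5. A repeat with that spacing stood in 31 of 35116 promoter windows of all genes (0.0883%), and one with any of the 3 spacings in 91 (0.259%). The stretches before these start sites are shown because they are the 2 windows that held a repeat. The windows of DHRS3 and RARG, whose contacts also differed in ATRA in the results that follow, held none. Capitals mark the repeat, which began 53 bases before the start site of RARB on the sense strand and 90 bases before that of CYP26A1 on the antisense strand (plus strand of the genome, chr3:25428013-25428262 and chr10:93073643-93073892).
RARB: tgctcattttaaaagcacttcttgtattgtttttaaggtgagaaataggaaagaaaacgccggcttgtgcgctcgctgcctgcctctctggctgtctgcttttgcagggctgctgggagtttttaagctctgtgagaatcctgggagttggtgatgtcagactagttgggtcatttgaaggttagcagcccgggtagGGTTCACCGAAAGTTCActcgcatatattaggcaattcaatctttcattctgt
CYP26A1: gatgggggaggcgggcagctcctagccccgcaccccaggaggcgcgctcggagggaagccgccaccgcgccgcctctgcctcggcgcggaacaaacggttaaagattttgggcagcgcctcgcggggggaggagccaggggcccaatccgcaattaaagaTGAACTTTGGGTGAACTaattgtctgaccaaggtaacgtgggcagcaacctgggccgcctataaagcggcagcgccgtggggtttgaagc
Read in its own direction, the RARB repeat is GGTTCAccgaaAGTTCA, with the core motifs in capitals. That of CYP26A1 is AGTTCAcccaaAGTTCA. A match of letters is not a measured binding site, and a contact bin is far longer than these windows.

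The untreated map held 10628045 contacts, the ATRA map 9632300 and the TPA map 10423501. The median bin took part in 3461, 3272 and 3466 contacts. The ATRA map stood apart in its share of contacts between chromosomes: 68.5% of its contacts joined different chromosomes, against 61.0% in untreated cells and 63.7% in TPA. The part this played in the values that follow was not tested.

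In untreated cells 8 of the 10 loci lay in the A compartment, and the 2 in B were RARB and RXRG. The compartment score starts from the balanced contacts within a chromosome, each divided by the mean at its distance. It is the leading eigenvector of the covariance of their correlation matrix, in SD of that chromosome, positive in A. It has no counting interval. A bins, named so throughout, are the 2469 of 5630 that scored above 0 in the sum of the 3 maps. Of the receptor genes RXRB scored 1.90, RARG 1.77 and RARA 1.57. RXRG, a receptor gene of restricted expression, scored -1.25 and RARB -1.08. Among the response genes, CYP26A1 scored 1.26, TGM2 0.42 and DHRS3 0.22, and the last pair sat on slopes between A and B. RXRA scored 0.78 and PML 0.84.

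In ATRA the score was higher than in untreated cells by over 0.5 SD at 3 of 10 loci, RARB, DHRS3 and TGM2, where 10.7% of all bins did so. None was lower by that much, against 12.1% of all bins. In TPA 2 of 10 loci were higher, RXRA and TGM2, against 16.3% of bins, and none was lower, against 17.5%. The median difference over the loci was 0.34 SD in ATRA and -0.15 SD in TPA, where that over all bins was 0.03 and 0.07.

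**Figure D1:**
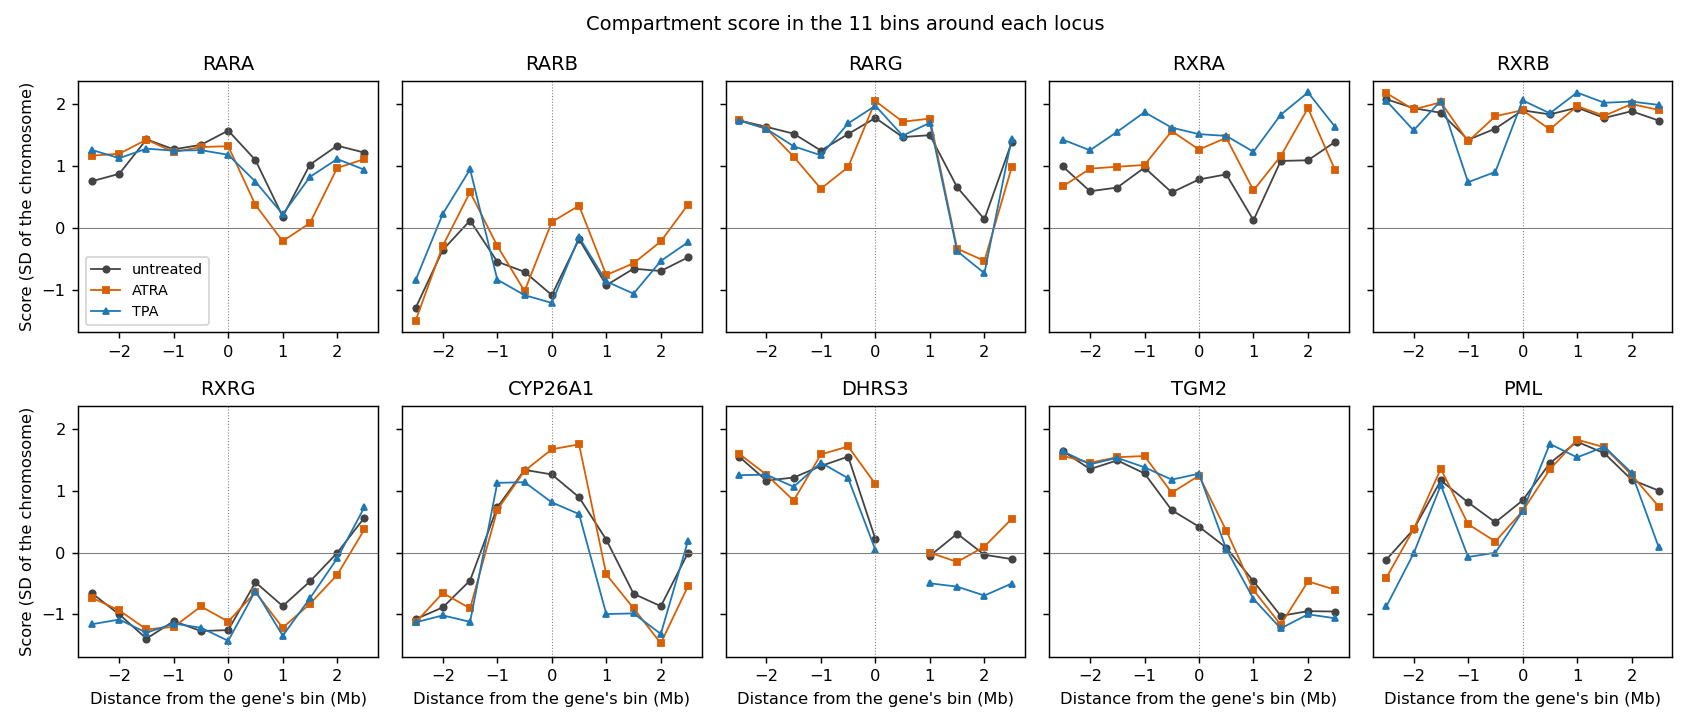
Compartment score (vertical axis, in SD of the chromosome) against distance from the gene's bin (horizontal axis, in Mb) for the 11 bins around each of the 10 loci, with 1 line per condition. In ATRA the RARB bin stands at 0.10 above its untreated and TPA values of -1.08 and -1.21, and the DHRS3 bin at 1.10 above 0.22 and 0.04. The gap beside DHRS3 is a bin left out for low coverage.

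RARB, a receptor gene that ATRA itself induces in many cells, had the largest score difference of the 10 loci in ATRA. It scored -1.08 in untreated cells, 0.10 after ATRA and -1.21 after TPA (chromosome 3, 25 to 25.5 Mb). Its ATRA difference of 1.18 SD stood at the 99.7th percentile of all bins and above the differences of all 10 flanking bins. Of these, that starting at 27.5 Mb differed most, from -0.48 to 0.38. With the 2 arms of chromosome 3 scored apart, RARB scored -1.09 in untreated cells and -0.48 after ATRA. That difference was 0.62 SD, and the bin stayed in B. The share of its contacts on chromosome 3 beyond 2 Mb that reached A bins was 29.9% (25.4 to 34.8) in untreated cells, 45.9% (40.7 to 51.2) after ATRA and 31.9% (27.5 to 36.5) after TPA. The ATRA interval overlapped neither of the other 2. These shares rest on 381, 364 and 427 contacts.

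Contacts of RARB with other chromosomes did not show this. A score from contacts between chromosomes, in SD over all bins, was -0.55 in untreated cells, -0.74 after ATRA and -0.84 after TPA. The share of those contacts that went to A bins, divided by the share that the coverage of A bins predicts, was 0.910 (0.853 to 0.968), 0.893 (0.835 to 0.952) and 0.874 (0.813 to 0.935). RARB was the least covered of the 10 bins, with 1879, 1857 and 1751 contacts. Its 4 RefSeq start windows span 629 kb, more than a bin, so the bin holds some of its promoters and not all.

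CYP26A1 encodes the cytochrome that breaks down retinoic acid. It lay in a short A domain with B on both sides. Its score was 1.26 in untreated cells, 1.67 after ATRA and 0.81 after TPA (chromosome 10, 94.5 to 95 Mb). Neither difference passed 0.5 SD, and that between ATRA and TPA was 0.86 SD. Of its flanks in ATRA the bin starting at 95 Mb differed most, from 0.89 to 1.74, and in TPA that starting at 95.5 Mb, from 0.21 to -0.99.

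The score from contacts between chromosomes separated the conditions further at CYP26A1. It was 0.04 in untreated cells, 1.18 after ATRA and 0.04 after TPA, and the ATRA difference stood at the 99.7th percentile of all bins. The A share over prediction was 1.04 (1.00 to 1.08), 1.14 (1.10 to 1.19) and 1.01 (0.971 to 1.05). Within chromosome 10 the A share beyond 2 Mb was 65.8% (62.7 to 68.8) in untreated cells, 72.5% (69.2 to 75.7) after ATRA and 59.3% (56.4 to 62.3) after TPA. ATRA was thus highest on both A shares, and on the second TPA was below untreated cells with no overlap of intervals. Not divided by prediction, the A share between chromosomes differed from untreated by 1.52 points in ATRA (-1.23 to 4.27). With A bins from the untreated matrix that difference was -0.45 (-3.19 to 2.29).

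DHRS3 encodes a short-chain reductase that returns retinal to retinol. Its bin lies at the edge of an A domain. It scored 0.22 in untreated cells, 1.10 after ATRA and 0.04 after TPA (chromosome 1, 12.5 to 13 Mb). The ATRA difference of 0.89 SD was above those of its 9 scored flanks, of which the bin starting at 15 Mb differed most, from -0.11 to 0.54. In TPA that starting at 14 Mb differed most, from 0.30 to -0.55. With the 2 arms of chromosome 1 scored apart, the ATRA difference was 0.15 SD and under the threshold.

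Contacts of DHRS3 between chromosomes ran the same way on the score and on the A share over prediction. The score from them was 0.25 in untreated cells, 0.91 after ATRA and 0.17 after TPA. The A share over prediction was 0.995 (0.952 to 1.04), 1.13 (1.08 to 1.17) and 1.00 (0.961 to 1.05), and its ATRA difference stood at the 99.5th percentile of all bins. Within chromosome 1 the A share was 66.8% (64.0 to 69.6), 72.6% (69.9 to 75.2) and 66.1% (63.3 to 68.8). On these last 2 measures the ATRA interval lay above both others. Not divided by prediction, the A share between chromosomes differed from untreated by 3.22 points in ATRA (0.28 to 6.16). With A bins from the untreated matrix that difference was -1.24 (-4.17 to 1.70), and as the share reaching chromosome 19 it was -0.75. The bin that follows DHRS3 was left out for low coverage, so its boundary was seen from 1 side.

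TGM2 encodes tissue transglutaminase, an enzyme long used as a retinoid marker in myeloid cells. It lay where an A domain gave way to B, and of the 10 loci it alone scored over 0.5 SD higher in both treatments. Singly, 10.7% of all bins did so in ATRA and 16.3% in TPA, and the share of bins in both was not counted. TGM2 scored 0.42 in untreated cells, 1.24 after ATRA and 1.27 after TPA (chromosome 20, 36.5 to 37 Mb). Its difference was above those of all 10 flanks in each treatment. The flank that differed most in ATRA started at 38.5 Mb, from -0.95 to -0.46, and in TPA at 36 Mb, from 0.68 to 1.18. With the 2 arms of chromosome 20 scored apart, the TGM2 difference was 0.24 in ATRA and 0.18 in TPA, both under the threshold.

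The side of TGM2's contacts was shifted in TPA, where its interval lay apart from the untreated one. Of its contacts with the 5 bins on either side, 71.4% (68.4 to 74.2) in untreated cells, 74.0% (70.4 to 77.4) after ATRA and 78.4% (75.2 to 81.4) after TPA reached the A side. Within chromosome 20 the A share was 59.5% (56.8 to 62.2), 66.6% (63.4 to 69.7) and 72.0% (69.2 to 74.7), apart from untreated in both treatments. Between chromosomes the score was 1.15, 1.72 and 1.10, over 0.5 SD higher in ATRA and not in TPA. The A share over prediction was 1.12 (1.08 to 1.15), 1.18 (1.15 to 1.22) and 1.16 (1.13 to 1.19), with overlapping intervals.

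Counted over the loci, the A share within the chromosome was higher in ATRA than in untreated cells, with intervals apart, at 5 of 10: RARB, RARG, CYP26A1, DHRS3 and TGM2. That held for 2.50% of all bins, and the difference at the median bin was -1.2 points. In TPA it was higher at 1 of 10, TGM2, against 5.03% of bins, and lower at 1, CYP26A1, against 18.5%. None of the 10 was lower in ATRA, against 10.8% of bins. This measure was added after the data had been seen. On the score between chromosomes 3 of 10 were higher in ATRA by over 0.5 SD, CYP26A1, DHRS3 and TGM2, against 5.03% of bins, and none was lower, against 5.88%. In TPA none was higher, against 11.7%, and RARA and PML were lower, against 12.8%. The A share over prediction was higher in ATRA with intervals apart at 2 of 10, CYP26A1 and DHRS3, against 4.76% of bins, and in TPA at none, against 5.77%.

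ATRA and TPA were also set against each other directly. The score was over 0.5 SD higher in ATRA than in TPA at 3 of 10 loci, RARB, CYP26A1 and DHRS3, against 12.1% of bins, and lower at none, against 11.6%. The score between chromosomes was higher by that much at 5 of 10, the 3 response genes with RXRA and PML, against 6.87% of bins, and lower at none, against 7.71%. The A share within the chromosome was higher with intervals apart at RARB, CYP26A1 and DHRS3, against 7.34% of bins, and lower at none, against 4.39%. Over prediction, between chromosomes, it was higher at CYP26A1 and DHRS3, against 5.22% of bins, and lower at none, against 2.50%. CYP26A1 and DHRS3 were thus above TPA on each of these 4 measures. TGM2, which was also higher in TPA than in untreated cells, was above it on 1. The 4 measures are not independent. Of them, 2 read the contacts within the chromosome and 2 those between chromosomes, and the A bins come from a sum that holds both maps. The 2 A shares among them were added after the data had been seen. The share of all bins above TPA on all 4 was not counted. Not divided by prediction, the A share between chromosomes was 3.69 points higher in ATRA than in TPA at CYP26A1 (0.92 to 6.46). At DHRS3 it was 3.43 points higher (0.49 to 6.37). At both loci the intervals of the shares themselves overlapped.

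**Figure D2:**
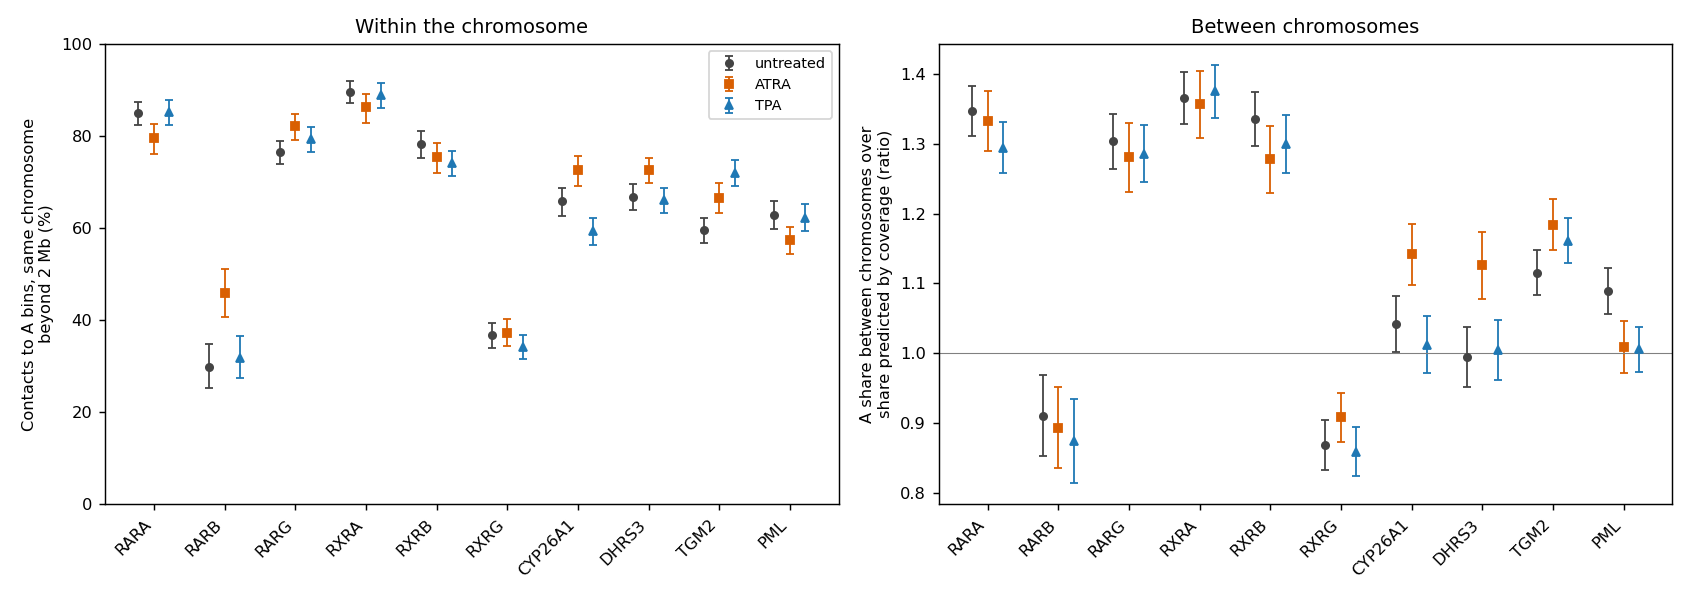
Left, the percentage of each locus's contacts on its own chromosome beyond 2 Mb that reach A bins. Right, the A share of contacts between chromosomes divided by the share that coverage predicts (ratio, line at 1). Points are the untreated, ATRA and TPA maps and bars are exact binomial 95% intervals. ATRA stands above both other conditions for RARB on the left, and for CYP26A1 and DHRS3 in both panels.

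RARA, the receptor through which ATRA acts on granulocyte maturation, stayed in A throughout. It scored 1.57 in untreated cells, 1.32 after ATRA and 1.18 after TPA (chromosome 17, 38 to 38.5 Mb). Its flank starting at 39.5 Mb differed most in ATRA, from 1.02 to 0.08, and in TPA that starting at 35.5 Mb, from 0.75 to 1.26. Its score between chromosomes was 3.26, 3.06 and 2.72, lower in TPA by over 0.5 SD. The A share over prediction was 1.35 (1.31 to 1.38), 1.33 (1.29 to 1.38) and 1.29 (1.26 to 1.33), with overlapping intervals. Within chromosome 17 the A share was 85.0% (82.4 to 87.4), 79.6% (76.2 to 82.7) and 85.3% (82.5 to 87.7), also overlapping.

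RARG, the receptor gene most studied in skin and in hematopoietic stem cells, scored 1.77 in untreated cells, 2.05 after ATRA and 1.97 after TPA (chromosome 12, 53.5 to 54 Mb). The bin starting at 55 Mb left A beside it, from 0.66 to -0.34 in ATRA and to -0.38 in TPA. The A share within chromosome 12 was 76.5% (73.9 to 78.9), 82.1% (79.1 to 84.8) and 79.4% (76.6 to 82.0). Between chromosomes its score was 2.44, 2.86 and 2.48, and its A share over prediction 1.30, 1.28 and 1.29. RARG's own bin thus remained at the 96.3rd percentile of all bins or above while a bin 1.5 Mb away crossed 0 in both treatments.

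RXRA and RXRB encode broadly expressed partners of the receptors. RXRA scored 0.78 in untreated cells, 1.26 after ATRA and 1.51 after TPA (chromosome 9, 137 to 137.5 Mb), and all 10 of its flanks were higher in TPA. The flank that differed most started at 136.5 Mb in ATRA, from 0.57 to 1.56, and at 138 Mb in TPA, from 0.12 to 1.23. The TPA difference of RXRA, 0.73 SD, was 0.11 with its arms scored apart and 0.45 without balancing, both under the threshold. The score between chromosomes was 3.26, 3.53 and 3.01. The A shares of RXRA did not follow the score within the chromosome. Between chromosomes, over prediction, they were 1.37 (1.33 to 1.40), 1.36 (1.31 to 1.40) and 1.37 (1.34 to 1.41), and within chromosome 9 they were 89.6% (87.1 to 91.8), 86.2% (82.8 to 89.2) and 89.0% (86.2 to 91.4).

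RXRB scored 1.90 in untreated cells, 1.90 after ATRA and 2.06 after TPA (chromosome 6, 33 to 33.5 Mb), between its coding neighbours COL11A2 and SLC39A7. Its flank starting at 33.5 Mb differed most in ATRA, from 1.83 to 1.59, and that starting at 32.5 Mb in TPA, from 1.60 to 0.90. RXRB's score between chromosomes was 3.31, 3.00 and 2.83, and its A share over prediction 1.34, 1.28 and 1.30. Within chromosome 6 its A share was 78.2% (75.2 to 81.0), 75.4% (72.0 to 78.6) and 74.1% (71.4 to 76.7), with overlapping intervals.

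RXRG scored -1.25, -1.11 and -1.42 (chromosome 1, 165 to 165.5 Mb) and stayed in B with 9 of its 10 flanks in each condition. For RXRG the flank starting at 164.5 Mb differed most in ATRA, from -1.27 to -0.87, and that starting at 162.5 Mb in TPA, from -0.66 to -1.16. Its score between chromosomes was -0.86, -0.79 and -0.81, and its A share over prediction 0.869, 0.908 and 0.859. Of its contacts on chromosome 1 beyond 2 Mb, 36.7% (34.0 to 39.4), 37.3% (34.4 to 40.3) and 34.2% (31.6 to 36.8) reached A bins.

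PML encodes the scaffold of nuclear bodies and is the partner that the leukemia translocation fuses to RARA. Its score was 0.84 in untreated cells, 0.67 after ATRA and 0.66 after TPA (chromosome 15, 74 to 74.5 Mb). PML contacts between chromosomes leaned less to A in both treatments. The A share over prediction was 1.09 (1.06 to 1.12) in untreated cells, 1.01 (0.972 to 1.05) after ATRA and 1.01 (0.972 to 1.04) after TPA. PML was the 1 locus lower with intervals apart in each treatment, where 2.91% of all bins were in ATRA and 7.80% in TPA. The score between chromosomes was 0.79, 0.58 and 0.06. Within chromosome 15 the A share was 62.9% (59.8 to 65.9), 57.3% (54.3 to 60.3) and 62.3% (59.4 to 65.1), with overlapping intervals. Its flank starting at 73 Mb differed most in ATRA, from 0.81 to 0.46, and that starting at 76.5 Mb in TPA, from 1.00 to 0.08.

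The plain A share between chromosomes is given with its value over all bins, which was itself lower in ATRA. The median bin sent 45.7% of such contacts to A bins in untreated cells, 43.8% after ATRA and 45.6% after TPA. The share was lower in ATRA with intervals apart at 5 of 10 loci (RARA, RARG, RXRA, RXRB and PML), against 22% of bins. It was higher at none, against 0.0888% of bins. DHRS3 differed by 3.22 points upward (0.28 to 6.16), from 47.8% to 51.0%, at the 99.3rd percentile of all bins. That direction was not kept with A bins from the untreated matrix, which gave -1.24 points (-4.17 to 1.70), or as the share reaching chromosome 19, which gave -0.75, and with only A and B bins beyond 0.5 SD it was 2.09 (-1.34 to 5.51). In TPA it was lower at PML alone, against 11.1% of bins, and higher at none, against 3.3%.

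Coverage, the number of contacts a bin takes part in, was lower in ATRA at the 4 receptor loci that score highest in A between chromosomes. RXRA had 4729 contacts in untreated cells, 3087 after ATRA and 4176 after TPA. RARG had 4892, 3263 and 4211. RARA had 5338, 3805 and 4850, and RXRB 4659, 3355 and 4235. Relative to the median bin, the ATRA log2 ratio to untreated was -0.53 (-0.60 to -0.47) for RXRA, -0.50 (-0.57 to -0.44) for RARG, -0.41 (-0.47 to -0.35) for RARA and -0.39 (-0.46 to -0.33) for RXRB. These were the 4 of 10 loci over 1.2-fold lower in ATRA, against 11.1% of bins, and none was over 1.2-fold higher, against 0.751%. Relative to the median bin, all flanks of these 4 loci were lower in ATRA too, by larger or smaller folds. The RXRA flank starting at 139.5 Mb went from 1.32 to 0.81 times the median and that at 138 Mb from 1.68 to 1.39. RXRA itself went from 1.37 to 0.94. The RARA flank starting at 36.5 Mb went from 1.29 to 0.90, and RARA itself from 1.54 to 1.16. Scaled to the median bin of its own chromosome, RARA's ratio was -0.23, under 1.2-fold. Set against TPA instead, RARA, RARG and RXRA were over 1.2-fold lower in ATRA, against 3.63% of bins.

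In TPA the same 4 ratios ran from -0.22 to -0.14, and no locus passed 1.2-fold in either direction, against 0.838% of bins lower and 0.437% higher. Of the loci in B, RXRG had 5168, 5221 and 5277 contacts, and RARB's log2 ratio in TPA was -0.10 (-0.20 to -0.0092). TGM2, at 6579, 5273 and 6109, had the most contacts of the 10 in each condition, and PML had 5898, 5122 and 6025. The response loci DHRS3 (4035, 3596 and 3928 contacts) and CYP26A1 (4323, 3759 and 4160) stayed within 1.2-fold. The median A bin had a log2 ratio of -0.14 in ATRA and the median B bin 0.07, so lower coverage went with A over the genome. In TPA these medians were -0.08 and 0.06.

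**Figure D3:**
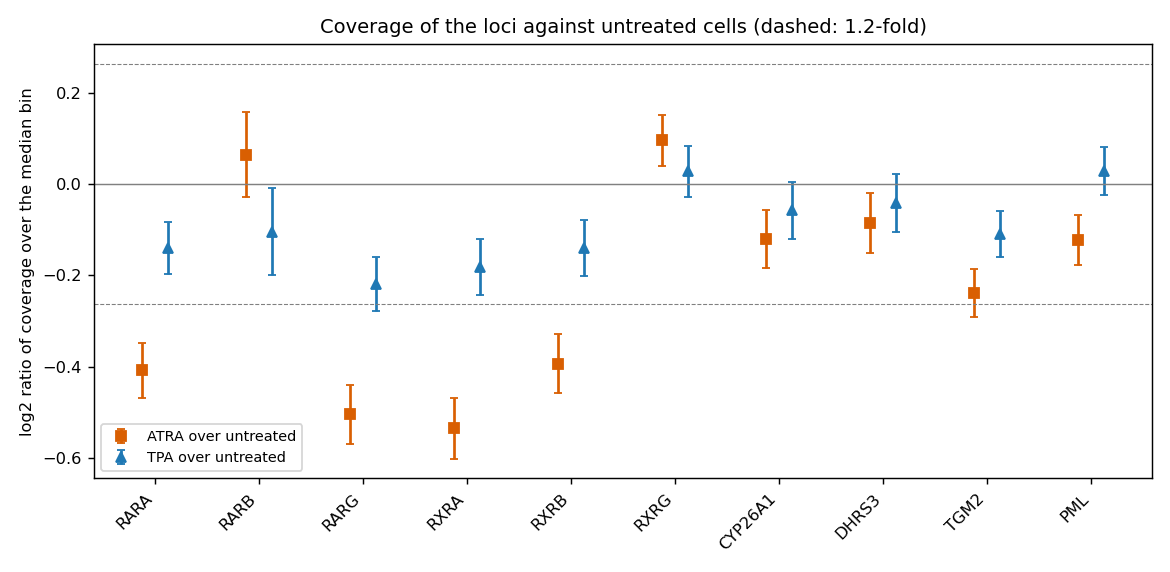
Log2 ratio of coverage relative to the median bin, ATRA and TPA over untreated, for each locus, with exact conditional 95% intervals for counting error. Dashed lines mark 1.2-fold. RARA, RARG, RXRA and RXRB lie below the lower line in ATRA, and no locus passes a line in TPA.

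Contacts by distance shifted from short to long range at most loci in both treatments. The measure was the share of contacts under 2 Mb among a bin's contacts with other bins of its chromosome. The median bin had 32.4% in untreated cells, 25.2% after ATRA and 24.4% after TPA. The share was over 1.2-fold lower at 8 of 10 loci in ATRA, against 64.9% of bins, and at 6 in TPA, against 73.1%. The loci were therefore near the background in both. None was over 1.2-fold higher, against 0.195% of bins in ATRA and 0.0178% in TPA.

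The 2 exceptions under ATRA were CYP26A1 and TGM2. CYP26A1 had 33.4% (31.0 to 35.9) in untreated cells, 34.0% (31.2 to 36.8) after ATRA and 24.4% (22.2 to 26.7) after TPA. Over chromosome 10 as a whole the share was 33.3%, 25.9% and 25.0%, so the CYP26A1 bin kept in ATRA a share that its chromosome did not. TGM2 had 39.4% (37.3 to 41.5), 38.2% (35.7 to 40.8) and 37.4% (35.1 to 39.8), where chromosome 20 had 42.0%, 35.1% and 35.8%. ATRA over TPA, the CYP26A1 share was 1.39-fold higher and that of RXRB 1.28-fold higher, the 2 of 10 over 1.2-fold, against 14.2% of bins, and none was lower by that much, against 5.83%.

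The receptors and PML followed the general shift. RXRA had 59.4% (57.0 to 61.8) in untreated cells, 49.1% (45.8 to 52.4) after ATRA and 51.9% (49.0 to 54.7) after TPA, the highest of the 10 in each. RXRB had 53.0% (50.6 to 55.4), 42.3% (39.5 to 45.2) and 33.0% (30.8 to 35.4), and its TPA to untreated ratio of 0.623 was the lowest of the 10. PML had 44.7% (42.4 to 47.0), 30.4% (28.2 to 32.8) and 35.8% (33.5 to 38.1). RARA had 53.1%, 41.8% and 45.3%, RARG 42.1%, 34.1% and 35.8%, and RARB 31.1%, 21.04% and 20.9%. RXRG had 28.5%, 20.6% and 22.7%, and DHRS3 28.7%, 18.8% and 19.4%, which left DHRS3 with the smallest share in each treatment. The low-coverage bin directly after DHRS3 held 183, 194 and 165 contacts in all, so few short-range contacts with it could be read. The part this played in the ranking was not tested.

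**Figure D4:**
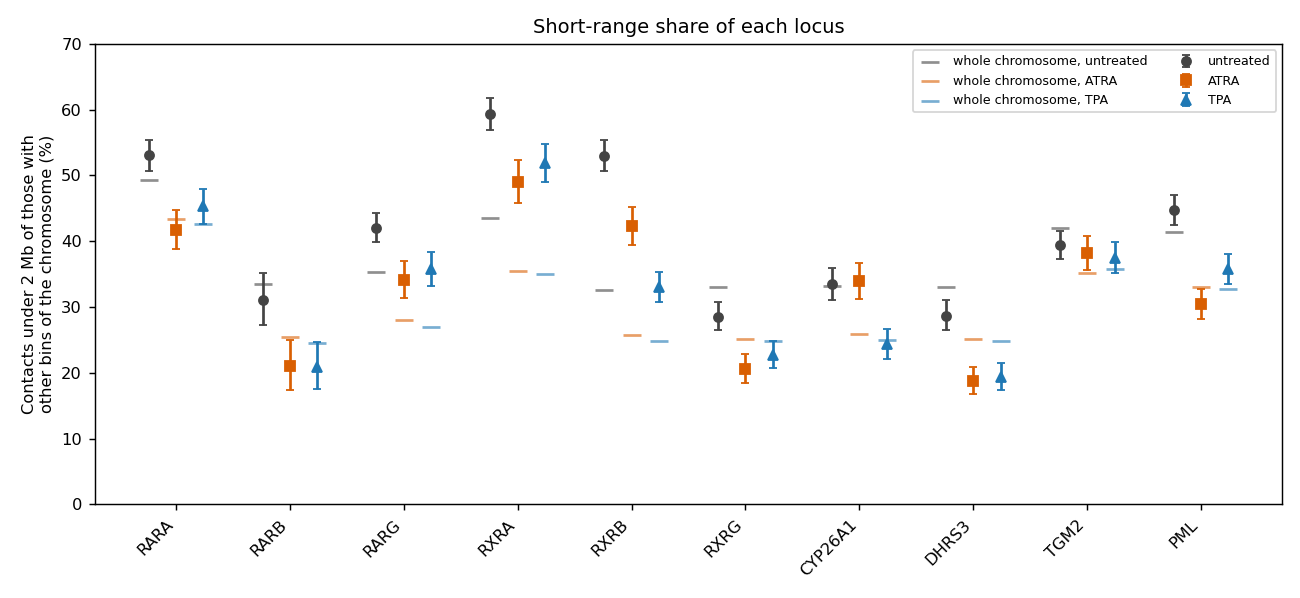
Percentage of each locus's contacts with other bins of its chromosome that lie under 2 Mb, in the 3 conditions, with exact binomial 95% intervals. Horizontal ticks give the same share over the whole chromosome. CYP26A1 stands at 34.0% in ATRA above the 25.9% of its chromosome, and RXRB at 33.0% in TPA against 53.0% in untreated cells.

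CYP26A1 kept its contacts with the next bin of its A domain in ATRA. Its bin made 195 contacts with the next bin in untreated cells, 195 after ATRA and 152 after TPA. Per total of the map, the ATRA ratio to untreated was 1.10 (0.900 to 1.35), at the 99.3rd percentile of 4495 adjacent pairs, where 90.7% of pairs were over 1.2-fold lower. With the bin before it CYP26A1 made 136, 99 and 95 contacts. In RefSeq its coding neighbours are CYP26C1, another retinoic acid hydroxylase, directly before it and MYOF after it, with the retinol carrier gene RBP4 4 coding genes away. The retinol transporter gene STRA6 is 4 coding genes from PML. Others of the 18 pathway genes listed were more than 5 coding genes from every locus and were not placed in bins.

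Contacts at 10 to 50 Mb differed between the loci. For RARB they made up 8.52% of all contacts in untreated cells, 9.21% after ATRA and 11.9% after TPA. For CYP26A1 that class held 12.4%, 11.4% and 14.5%, and for DHRS3 8.20%, 11.01% and 9.24%. Over all bins it held 8.58%, 8.22% and 9.29%. It held 7.87%, 8.30% and 7.55% for RARA, 7.87%, 7.14% and 7.12% for RARG, 3.68%, 5.09% and 4.41% for RXRA, and 5.00%, 6.20% and 7.93% for RXRB. For RXRG it held 7.80%, 7.14% and 8.22%, for TGM2 12.0%, 9.48% and 9.66%, and for PML 7.53%, 9.80% and 8.95%. The direction between ATRA and TPA was mixed over the loci, and it was not counted over all bins. For RARG the ATRA interval (6.28 to 8.08) held the TPA value. Contacts between chromosomes made up 66.7%, 72.7% and 65.7% of RARB's, and DHRS3 had 58.0%, 58.5% and 59.8%, where all bins had 63.7%, 70.6% and 66.0%. Over all bins a contact between bins counts at each of its bins, so these values exceed the shares of whole maps given earlier.

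Contacts that cross a locus, between the 5 bins before it and the 5 after, were set over the mean at the same distances on the chromosome. RXRA stood at 3.18 (3.02 to 3.35) in untreated cells, 3.09 (2.91 to 3.28) after ATRA and 2.92 (2.76 to 3.08) after TPA, at the 99.7th percentile of bins in untreated cells. The RXRA window thus held more such contacts than the average place on chromosome 9 in all 3 conditions. These counts were not corrected for coverage. In untreated cells the flanks of RXRA had from 1.32 to 1.98 times the coverage of the median bin. The part that coverage played in these ratios was not tested. TGM2, at its boundary, stood at 0.618 (0.557 to 0.684), 0.618 (0.547 to 0.695) and 0.531 (0.472 to 0.594), and RARB at 0.568, 0.570 and 0.577. In each treatment 1 of 10 loci was over 1.2-fold higher than in untreated cells, CYP26A1 both times, at 0.824, 1.03 and 1.06, against 11.5% of bins after ATRA and 13.1% after TPA. With 10 bins on either side its ratio to untreated was 1.14 in ATRA and 1.07 in TPA, both under 1.2-fold. None was lower, against 15.5% and 14.4%. RARA stood at 1.199, 1.03 and 1.24, RARG at 1.11, 0.984 and 1.08, and RXRB at 1.14, 1.254 and 1.03. RXRG, at 0.762, 0.870 and 0.769, was below the mean of its chromosome in all 3 conditions. So was the median of all bins, at 0.883, 0.882 and 0.884, and RXRG stood at the 36.6th, 49.3rd and 38.0th percentiles. DHRS3 stood at 1.04, 1.12 and 0.890, and PML at 1.00, 1.14 and 0.847.

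PML and RARA are the genes joined by the translocation of acute promyelocytic leukemia, a fusion that HL60 is known to lack. Between their 11-bin windows there were 144 contacts in untreated cells, 102 after ATRA and 95 after TPA. Over the number that coverage predicts, this was 1.57 (1.32 to 1.84), 1.49 (1.22 to 1.81) and 1.12 (0.909 to 1.37). Among 109890 pairs of such windows on different chromosomes these stood at the 98.0th, 98.1st and 77.2nd percentiles. The TPA interval overlapped both others, and the 2 bins themselves shared 2, 1 and 0 contacts, too few to compare. With 3-bin windows the untreated value was 0.564 (0.183 to 1.32) and that of ATRA 1.82 (0.942 to 3.18). The window pairs behind the percentiles were not sorted by compartment. With 11-bin windows in untreated cells, PML stood higher with RXRA (1.84) and RXRB (1.66) than with RARA, and lower with the other loci. RARA stood higher with RXRA (2.25), RXRB (1.91), RARG (1.74) and DHRS3 (1.69) than with PML, and lower with the other loci.

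The 3 highest pairs in untreated cells joined the windows of RARA, RXRA and RXRB. RXRA with RXRB stood at 2.29 (1.99 to 2.63), RARA with RXRA at 2.25 (1.97 to 2.55) and RARA with RXRB at 1.91 (1.60 to 2.25). The first 2 were the only of 44 pairs past 2-fold, against 0.769% of window pairs. In ATRA these 3 stood at 2.20, 2.06 and 1.71, and in TPA at 2.21, 1.77 and 1.93. The lowest in untreated cells were RARA with RXRG at 0.655 (0.480 to 0.874), RARB with RXRB at 0.657 (0.401 to 1.01) and RARB with TGM2 at 0.668 (0.440 to 0.972). Each of these 3 joins an A locus to a B locus, and they stood at 0.763, 0.729 and 0.741 in ATRA and at 0.8001, 0.784 and 0.934 in TPA. Past 2-fold were 3 pairs in ATRA, against 0.585% of window pairs, and 1 in TPA, against 0.633%. The highest in ATRA was RXRA with DHRS3, at 2.44 (2.08 to 2.85) against 1.71 (1.44 to 2.00) in TPA, a pair singled out after its values were seen. RXRG and DHRS3 share chromosome 1 and are left out of the 44.

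**Figure D5:**
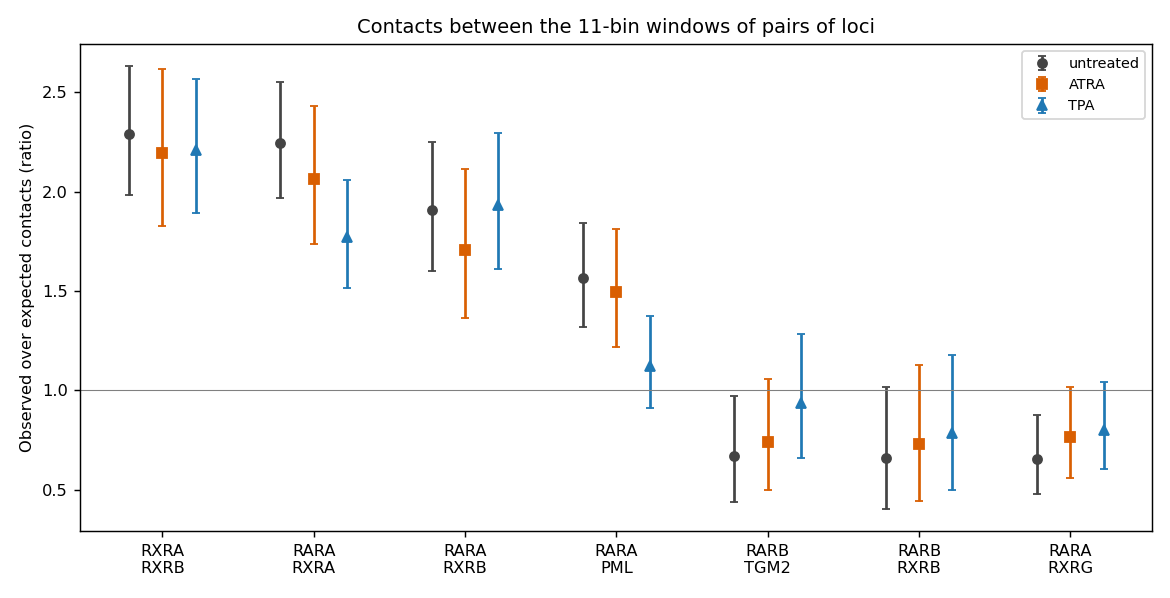
Observed over expected contacts between the 11-bin windows of pairs of loci on different chromosomes, for the 3 highest pairs in untreated cells, RARA with PML, and the 3 lowest, with exact Poisson 95% intervals and a line at 1. RARA with PML stands at 1.57 in untreated cells, 1.49 after ATRA and 1.12 after TPA, with overlapping intervals.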

How the data were processed

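Per the submitters' processing notes, Hi-C reads of HL60 were processed with Bowtie and HOMER 4.7 on hg19, and the series' design text adds HiCUP as the filter. No source used here states the filter settings. The files the authors deposited are 3 square matrices of whole-number contact counts, not normalized, each over 6203 bins of 500 kb. Diagonal counts were divided by 2, and the 1 cell that differed from its mirror was taken from the upper triangle.

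Scores used only bins that reached 0.2 times the median coverage in all 3 matrices. Each matrix was balanced in 60 iterations, and the sign of scores was set by contact with chromosome 19. The second eigenvector was to be used where the first followed chromosome arms at a correlation above 0.7. That occurred on no chromosome, so all scores are first eigenvectors. A bins scored above 0 in the summed matrix. Correlation of scores with untreated was 0.904 in ATRA and 0.832 in TPA over 5630 bins, as a description. A difference was called past 0.5 SD, 1.2-fold (2-fold for pairs) or with intervals apart (exact binomial, Poisson or conditional binomial). Intervals on differences of shares followed Newcombe. All 10 loci are named for the score, coverage, share under 2 Mb, class of 10 to 50 Mb, crossing contacts and A shares within the chromosome and over prediction, with the flank that differed most per treatment, and of the pairs PML with RARA and the 3 highest and 3 lowest in untreated cells. Contacts by side, with adjacent bins and as plain A shares are given for loci singled out after their values were seen. Loci and lists were chosen with earlier results of these data known. The bins came from the stated hg19 positions, and no hg19 annotation was used here. The score within the chromosome, that between chromosomes, the coverage ratios and the Poisson intervals were tested on simulated data. The other measures were not. Python 3.11.15, numpy 2.4.6 and scipy 1.17.1 were used. The closing section gives the alternatives.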

Additional observations from a re-analysis of the deposited data

How the results depend on the processing

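Each condition is a single map, so no setting leaves out a library. No paired analysis was possible because the numbered libraries were merged before deposit and no test was made. The count of 3 loci higher in ATRA ran from 2 to 4 over the 5 alternatives to the score, and the loci differed. Per arm, DHRS3 differed by 0.15 and TGM2 by 0.24, under the 0.5 SD threshold, and between chromosomes RARB reversed to -0.19. CYP26A1 passed it in ATRA without balancing (0.57), between chromosomes (1.14) and per arm (0.51). In TPA the count of 2 higher became 1 without balancing, with a coverage minimum of 0.5 times the median and with scores weighted by eigenvalue, and 0 between chromosomes and per arm. The count lower in TPA became 2 between chromosomes and 1 with that weighting, and between chromosomes RXRA (-0.24) and TGM2 (-0.046) reversed in TPA.

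The summed A share between chromosomes differed from untreated by -3.55 points in ATRA and -1.81 in TPA. It was -4.67 and -3.13 with A bins from the untreated matrix, and -0.970 and -0.726 as the share reaching chromosome 19. With 2 alternatives added after seeing the data, within the chromosome it was 1.15 in ATRA, reversed, with RARG at 5.63, and -0.418 in TPA, and minus the predicted share it was -0.725 in ATRA. The summed log2 coverage ratio of -0.23 in ATRA and -0.09 in TPA became -0.19 and -0.069 scaled to totals, -0.18 and -0.051 scaled to each chromosome, and -0.036 in TPA over contacts between chromosomes. The summed short-range share, -9.32 and -9.23 points, became -5.25 and -5.54 for adjacent bins and -4.58 and -4.09 as a share of all contacts. The ratio of crossing contacts, 1.03 in ATRA and 0.959 in TPA, became 0.957 in ATRA with 10 bins a side, and 1.18 in ATRA and 1.03 in TPA, reversed, when balanced. PML with RARA stood at 0.564 in untreated cells and 1.82 in ATRA with 3-bin windows, which rest on few contacts. Pairs past 2-fold numbered 4, 7 and 2 (untreated, ATRA, TPA) with 3-bin windows, and in TPA 2 with the ratio of the chromosome pair and 0 with 21-bin windows. Causes of these differences were not tested. Single bin pairs hold few contacts at this depth, and RARB is the least covered of the 10 loci.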
